A study of Mus musculus with 95 samples.

Results

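The genes described here are the cyclin-dependent kinase inhibitor genes Cdkn2a, Cdkn2b, Cdkn2c, Cdkn2d, Cdkn1a and Cdkn1b. They were taken by name from a table of read counts over 23377 genes, and all 6 were found there. A filter on low counts left 15871 genes for the tests, and all 6 passed it. Their annotated transcription starts were also searched for ChIP-seq peaks, a start counting as occupied where a peak lay within 2.5 kb of it. Cdkn1c and Cdkn3, the 2 other inhibitor genes of the family lists, are given for comparison.

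The series holds 14 libraries of poly-A RNA-seq and 81 ChIP-seq samples, 95 in all, from mouse embryonic stem cells. All cells were labelled as E14, an established mouse embryonic stem cell line, or a derivative of it, and they were grown on gelatin in serum with leukemia inhibitory factor and inhibitors of GSK3β and of MEK1/2. RNA was measured in wild-type cells and in 6 lines lacking PCGF genes, labelled Pcgf1-/-, Pcgf2/4-/-, Pcgf3/5-/-, Pcgf6-/-, Pcgf1/2/4-/- and Pcgf3/5/6-/-, with 2 libraries for each of the 7 genotypes. Each knockout was a clone isolated after transfection of Cas9 and guide RNAs, and double and triple knockouts were made by editing single-knockout clones again, so that genotype and clone cannot be told apart. Nothing in the labels says that the libraries of a genotype came from separate cultures, and p-values therefore measure only the spread between these libraries. ChIP-seq was in addition done in Ezh1/2-/- cells, in cells labelled Ring1a-/-_Ring1bfl and Ring1a/b-/-, from a conditional line with floxed Ring1B and a CreERT2 transgene at Rosa26, and in puromycin-selected cells with short hairpin RNAs (shRNAs) named for E2F6, MGA, USF1 or USF2, with 1 sample for most antibodies and lines. The shRNA labels also included shMGAdHLH, the combined shE2F6-MGAdHLH and the control shCtr.

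Cells pass from growth into DNA synthesis when cyclin-dependent kinases phosphorylate the retinoblastoma protein and free E2F factors from it. Inhibitors of the INK4 class (Cdkn2a to Cdkn2d) bind CDK4 and CDK6 and keep them from D-type cyclins, while those of the CIP/KIP class (Cdkn1a, Cdkn1b and Cdkn1c) bind complexes of cyclin and kinase. The Cdkn2a gene also encodes ARF, which protects p53 by binding MDM2, from a separate first exon. The locus of Cdkn2a and Cdkn2b is a classical target of Polycomb repression. Polycomb repressive complex 1 (PRC1) joins RING1A or RING1B to 1 of several PCGF subunits and ubiquitinates histone H2A (H2AK119Ub1). Complex 2 (PRC2), with SUZ12 and EZH1 or EZH2, methylates histone H3 (H3K27me3). PCGF2 and PCGF4 (BMI1) form the canonical PRC1, and PCGF6 occurs in a complex with the DNA-binding proteins E2F6 and MGA.

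In NCBIM37 (mm9), Cdkn2a lay at chr4:88920377-88940557 on the minus strand and Cdkn2b at chr4:88952198-88956941 on the same strand. The upstream Cdkn2a start, from which ARF is made, lay 16.4 kb from the Cdkn2b start and 12.5 kb from the downstream start of the INK4A transcript. Cdkn2c lay at chr4:109333481-109339794 on the minus strand, with 2 starts 1.82 kb apart. Cdkn2d lay at chr9:21092907-21095653 on the minus strand. Cdkn1a lay at chr17:29227924-29237667 on the plus strand, with 3 starts, and Cdkn1b at chr6:134870419-134875531 on the plus strand. None of the 6 genes overlapped another annotated gene. One count was given per gene, so RNA from the ARF and INK4A starts of Cdkn2a could not be told apart.

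Library totals ran from 2147968 to 7848161 counts. The 2 wild-type libraries differed by less than sampling noise (chi-square per degree of freedom 0.954 over 14247 genes), whereas the pairs of the other genotypes gave 1.2 to 21.1, and they were therefore counted as 1 sample (n = 1, with no SD), against n = 2 for every knockout. Values are counts scaled to a common library total (CPM), and fold changes and adjusted p-values are from edgeR's quasi-likelihood test over 15871 genes, with 0.05 as the threshold. Of the targeted genes, Pcgf1 averaged 63.6 CPM in wild-type, 4.01 ± 1.14 (SD, n = 2) in Pcgf1-/- and 0.718 ± 0.261 in Pcgf1/2/4-/-, and Pcgf6 averaged 35.3 in wild-type and 0 in Pcgf6-/-. Pcgf6 mRNA stood at 39.4 ± 3.43 CPM in the libraries labelled Pcgf3/5/6-/-, and Pcgf2 mRNA at 48.0 and 57.0 CPM in those labelled Pcgf2/4-/- and Pcgf1/2/4-/-, against 46.0 in wild-type. Pcgf5 fell in Pcgf3/5-/- (5.05 ± 0.623 CPM against 11.9) and stood at 14.9 ± 2.06 in Pcgf3/5/6-/-. Pcgf3 (12.1 and 13.5 against 16.0) and Bmi1, the gene of PCGF4 (13.1 and 16.9 against 15.2), did not pass as lowered in either line that targets them, so that none of the 3 targets of Pcgf3/5/6-/- was called lower there. The labels do not give the edited positions, so mRNA that remains checks nothing about the protein, and "the libraries labelled" is meant wherever a direction is given for these lines. Summed levels of 12 embryonic stem cell markers ran from 2150 to 4660 CPM over all libraries, with none of the 12 at 0 in any genotype.

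The 6 inhibitor genes changed in different directions, and among the calls the direction differed between genotypes only for Cdkn1a and Cdkn1b. In Pcgf6-/-, Cdkn2a, Cdkn2b and Cdkn2d rose and Cdkn1b fell, while 24.4% of all genes tested rose and 14.2% fell. In Pcgf3/5/6-/-, Cdkn2a rose and Cdkn2c, Cdkn1a and Cdkn1b fell, beside 25.0% of all genes raised and 21% lowered. In Pcgf1/2/4-/-, Cdkn2a and Cdkn1a rose, beside 8.00% raised and 16.3% lowered overall. In Pcgf1-/-, Cdkn2b and Cdkn1b rose, beside 9.55% raised and 12.6% lowered. Cdkn1b alone of the 6 rose in Pcgf2/4-/-, where 5.05% of genes were raised and 9.19% lowered. None of the 6 passed edgeR's threshold in Pcgf3/5-/-, where 7.67% of genes were raised and 5.96% lowered, although 3 had an unadjusted p below 0.05, and DESeq2 as run here called 0. The median log2 fold change of the 6 ran from -0.32 in Pcgf3/5/6-/- to 0.80 in Pcgf6-/-, and that of all genes from -0.11 in Pcgf1/2/4-/- to 0.06 in Pcgf3/5/6-/-.

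**Figure D1:**
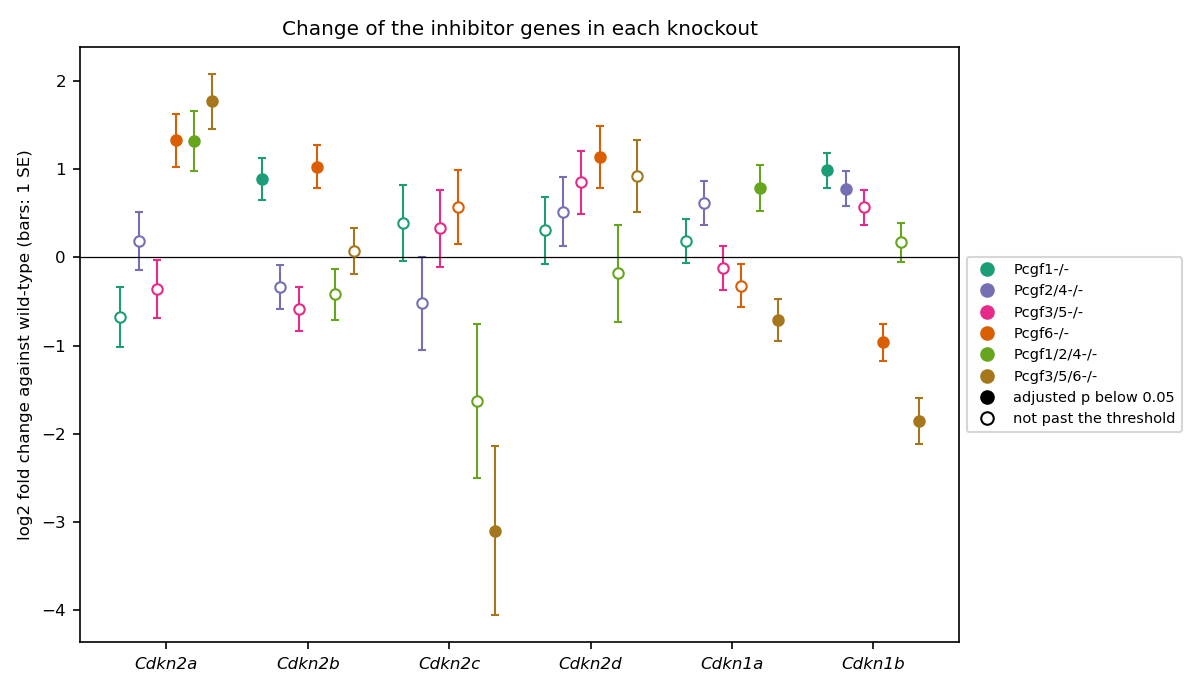
Log2 fold change of each inhibitor gene in each knockout against wild-type, on the vertical axis, with bars of 1 standard error and filled points where the adjusted p was below 0.05. Cdkn2a lies above 0 with filled points in Pcgf6-/-, Pcgf1/2/4-/- and Pcgf3/5/6-/-, and Cdkn1b spans from 0.99 in Pcgf1-/- to -1.86 in Pcgf3/5/6-/-.

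Compared per length of exon (RPKM, counts scaled to library total and exon length), Cdkn1a stood far above the other 5 genes in wild-type, at 86.2 RPKM. Cdkn2b followed at 11.7, Cdkn1b at 5.06 and Cdkn2a at 4.91. The last 2 overlapped across the wild-type libraries (4.71 and 5.42 for Cdkn1b, 4.4 and 5.42 for Cdkn2a), and their order was not tested. Cdkn2d at 1.95 and Cdkn2c at 0.582 were the least abundant. Cdkn1a kept the highest level per length in all 7 genotypes and Cdkn2c the lowest. In between, Cdkn2a moved up to 16.9 RPKM in Pcgf3/5/6-/-, above Cdkn2b at 12.2, while Cdkn1b moved down to 1.40, below Cdkn2d at 3.72.

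**Figure D2:**
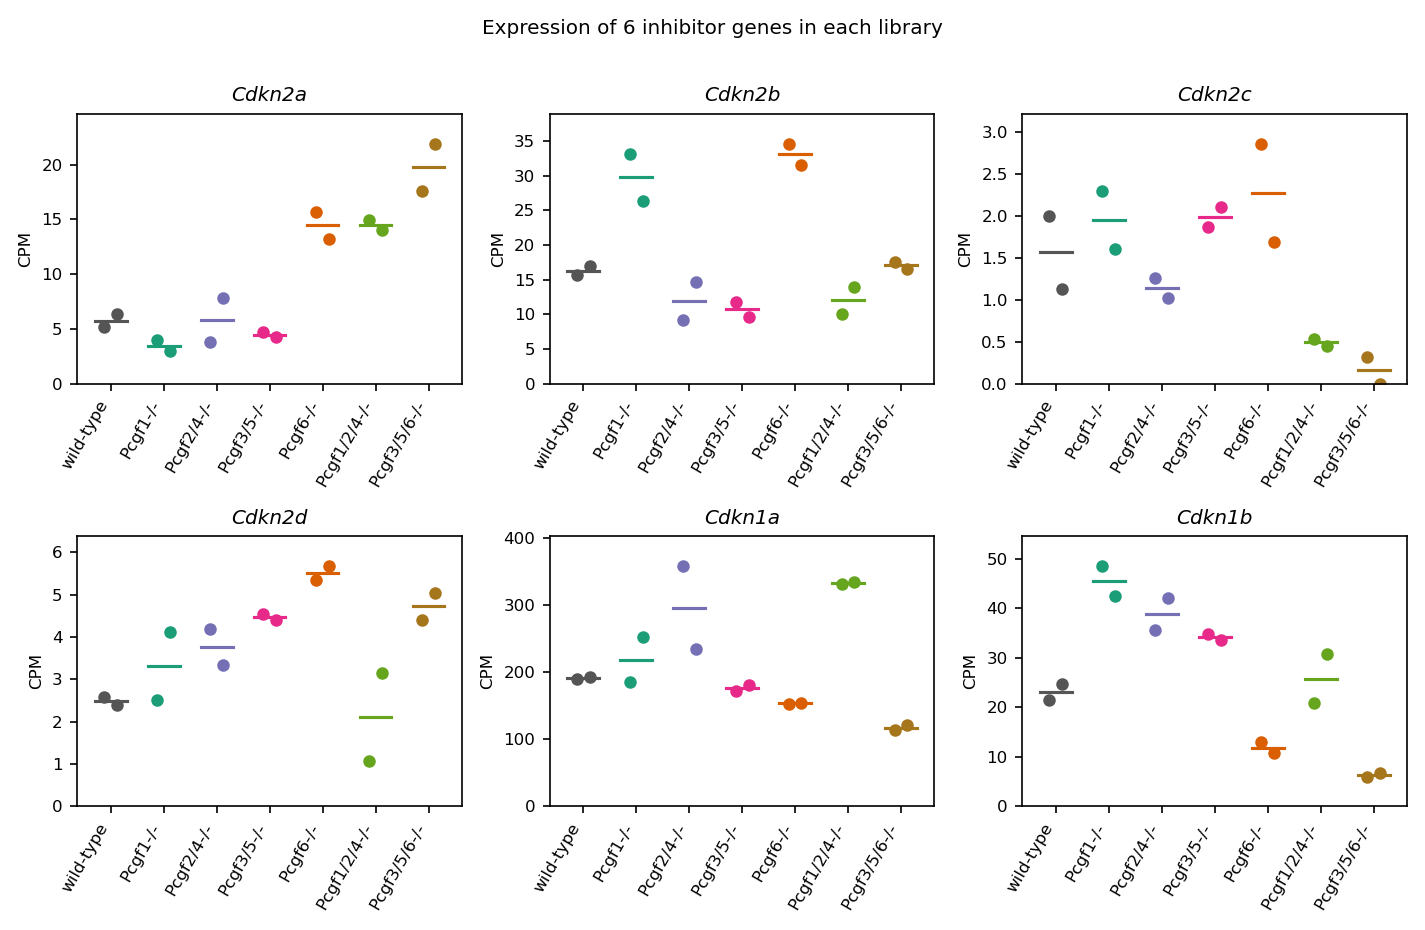
CPM of each inhibitor gene in each library, grouped by genotype, with a line at the mean of the 2 libraries and axes that start at 0. Cdkn2a points of Pcgf6-/-, Pcgf1/2/4-/- and Pcgf3/5/6-/- lie between 13.2 and 21.9 CPM, above the other 8 libraries, the highest of which stood at 7.81.

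Cdkn2a, which encodes the CDK4 and CDK6 inhibitor p16INK4A and the p53 activator p19ARF, was low in wild-type cells, at 5.14 and 6.34 CPM. It stood at 15.7 and 13.2 CPM in Pcgf6-/-, at 14.9 and 14 in Pcgf1/2/4-/- and at 17.6 and 21.9 in Pcgf3/5/6-/-. All 6 of these libraries lay above all others. The libraries of Pcgf1-/- stood at 3.94 and 2.97 CPM, those of Pcgf2/4-/- at 3.77 and 7.81 and those of Pcgf3/5-/- at 4.68 and 4.22, and the Pcgf2/4-/- pair spanned the wild-type pair. Against wild-type, Cdkn2a rose 2.51-fold in Pcgf6-/- (log2 fold change 1.33, SE 0.30, adjusted p = 0.00269). The rise was 2.5-fold in Pcgf1/2/4-/- (1.32, SE 0.34, adjusted p = 0.0128) and 3.42-fold in Pcgf3/5/6-/- (1.77, SE 0.31, adjusted p = 0.000426). Log2 fold changes of -0.68 in Pcgf1-/- (adjusted p = 0.175), 0.19 in Pcgf2/4-/- (0.761) and -0.36 in Pcgf3/5-/- (0.588) did not pass. The call in Pcgf1/2/4-/- was lost without its replicate 1 (1.28, adjusted p = 0.0746) or its replicate 2 (1.37, adjusted p = 0.0648), each of which leaves 1 library assumed to vary like the other groups. The counts behind the values were small, 81 over both wild-type libraries and 59 over those of Pcgf1/2/4-/-.

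The 3 lines in which Cdkn2a rose also had the highest summed markers of primitive endoderm. This is an extraembryonic cell type that embryonic stem cell cultures can give rise to. The 8 markers summed to 103 to 113 CPM in Pcgf6-/-, 41.6 to 53.2 in Pcgf1/2/4-/- and 180 to 182 in Pcgf3/5/6-/-, against 10.8 to 11.9 in wild-type. The sums were 1.60 to 3.83 CPM in Pcgf1-/-, 10.1 to 13.2 in Pcgf2/4-/- and 12.7 to 19.9 in Pcgf3/5-/-. Those of Pcgf3/5-/- thus also lay above wild-type, without a rise of Cdkn2a. Gata4, Gata6, Sox17, Foxa2 and Dab2 were at 0 in both wild-type libraries, and none of the 8 was at 0 in both libraries of the 3 lines with raised Cdkn2a. No other marker list had its highest sums in these 3 lines. Trophoblast markers summed to 114 to 134 CPM in Pcgf1/2/4-/-, 131 to 137 in wild-type and 182 to 207 in Pcgf3/5-/-. Neural markers summed to 76.8 to 89.2 CPM in Pcgf6-/- and 87.6 to 88 in wild-type. The part of any of these markers in the Cdkn2a result was not tested. In these bulk samples a change in the share of cells of 1 type and a change of RNA per cell cannot be told apart.

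Cdkn2a has 3 annotated starts: 2 close together on the ARF side, at positions 88940557 and 88940523 of chromosome 4, and the INK4A start at 88928096. "The ARF start" below stands for both of the first, and a peak was measured from the nearer. In wild-type cells RING1B and SUZ12 peaks were called on the ARF side and not at the INK4A start, and the 200 bases before the outer ARF start and before the INK4A start are shown so that their base composition can be compared. In the ARF window (chr4:88940558-88940757, minus strand) capitals mark an E2F site, and in the INK4A window (chr4:88928097-88928296, minus strand) capitals mark each CpG.
ARF start: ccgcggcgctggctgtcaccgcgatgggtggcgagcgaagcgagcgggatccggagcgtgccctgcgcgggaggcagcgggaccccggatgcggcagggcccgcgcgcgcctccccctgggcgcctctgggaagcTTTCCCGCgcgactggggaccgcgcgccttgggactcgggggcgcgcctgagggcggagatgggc
INK4A start: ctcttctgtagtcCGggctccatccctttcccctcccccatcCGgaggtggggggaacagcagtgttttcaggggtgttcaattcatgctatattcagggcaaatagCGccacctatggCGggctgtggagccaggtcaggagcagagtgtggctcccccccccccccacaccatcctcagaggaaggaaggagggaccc
The ARF window held 31 CpG and was 78.5% G+C, while the INK4A window held 4 CpG and was 61% G+C. Over the windows of all 67217 annotated starts the median was 7 CpG (quartiles 2 and 16) and 56% G+C. The E2F site TTTCCCGC, searched on both strands, lay 65 to 58 bases before the ARF start and occurred in 565 of the 67217 windows (0.841%). No window of the 6 genes held the E-box CACGTG (5.46% of all windows) or the TATA box TATAAA (8.16%).

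RING1B and SUZ12 peaks were called at the ARF start in wild-type, Pcgf1-/-, Pcgf2/4-/- and Pcgf3/5-/-, the 4 genotypes in which Cdkn2a was not raised. Neither was called there in Pcgf6-/-, Pcgf1/2/4-/- or Pcgf3/5/6-/-. The authors' fold enrichment of the RING1B peaks was 6.91 and 5.56 for the 2 wild-type peaks, 10.1 in Pcgf1-/-, 7.07 in Pcgf2/4-/- and 9.64 in Pcgf3/5-/-. For SUZ12 it was 6.52 in wild-type, 5.38 in Pcgf1-/-, 7.22 in Pcgf2/4-/- and 9.07 in Pcgf3/5-/-. These were modest peaks, in lists where RING1B covered 15.8% of the promoters of 21001 gene symbols in wild-type, 13.2% in Pcgf6-/-, 8.37% in Pcgf3/5/6-/- and 7.05% and 6.28% in the 2 Pcgf1/2/4-/- samples. SUZ12 covered 17.2% in wild-type, 15.1% in Pcgf6-/-, 13.6% in Pcgf3/5/6-/- and 13.8% in Pcgf1/2/4-/-. With 1 sample for most lines, a peak that was not called is not shown to be absent, and the change of a peak between lines was not tested.

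**Figure D3:**
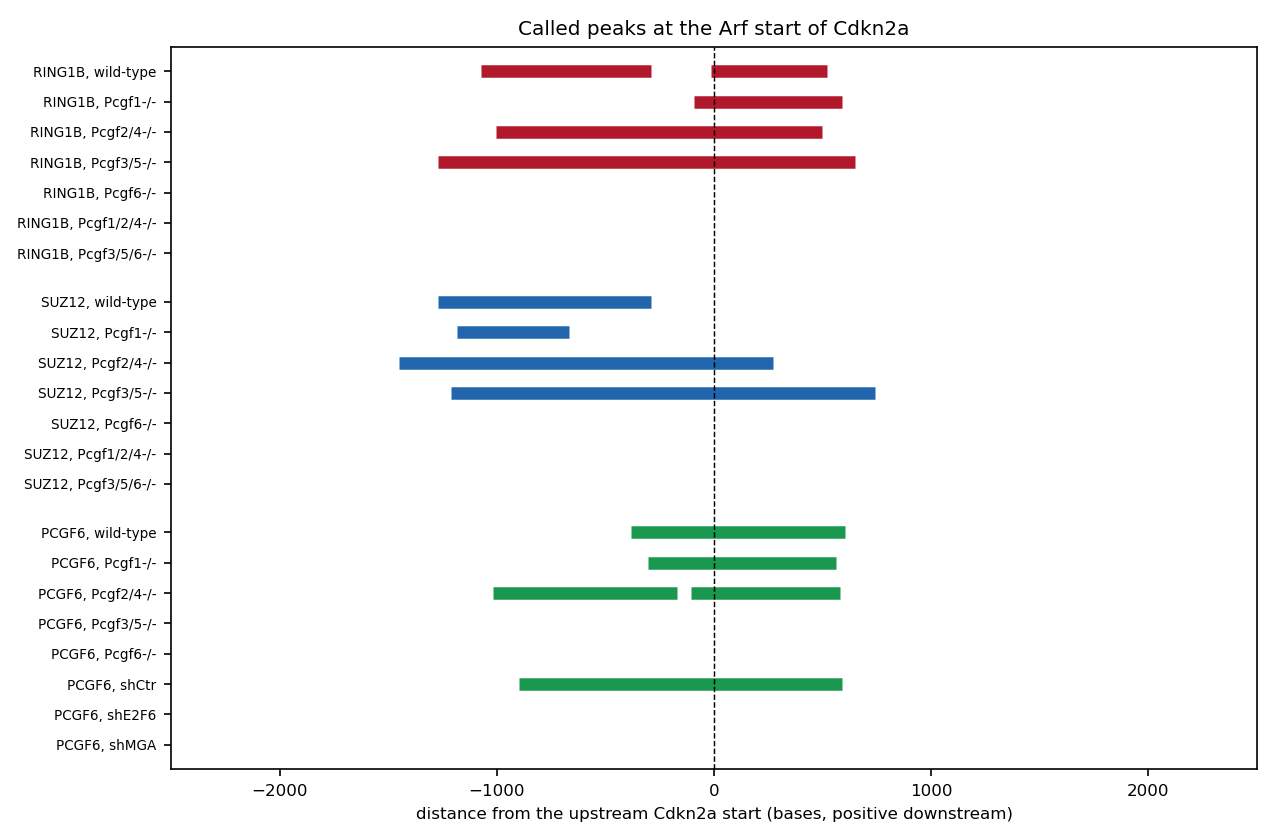
Peaks called for RING1B, SUZ12 and PCGF6 around the upstream start of Cdkn2a, as bars along the distance from that start in bases, with 1 row for each antibody and line. The rows of Pcgf6-/-, Pcgf1/2/4-/- and Pcgf3/5/6-/- are empty for RING1B and SUZ12, and the PCGF6 rows are empty in Pcgf3/5-/-, Pcgf6-/-, shE2F6 and shMGA.

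PCGF6 itself was called at the ARF start in wild-type (fold enrichment 9.35), Pcgf1-/- (13.9) and Pcgf2/4-/- (17.1 and 12.8, 2 peaks) and in the shRNA control (12.2). It was not called there in the cells with shRNA against E2F6 or MGA, nor in the other 6 PCGF6 lists. Those lists differ in size: PCGF6 peaks covered 21% of promoters in the shRNA control, 1.88% with shRNA against E2F6 and 0.729% with shRNA against MGA, and whether PCGF6 at Cdkn2a differed between these cells was not tested. WDR5, a subunit shared by several chromatin complexes, was called at the ARF start in wild-type cells (fold enrichment 8.07), with its summit 11 bases from the start. Of the 6 inhibitor genes only Cdkn2a had a WDR5 peak, in a list that covered 9.49% of promoters, and none had a USF1 peak, in a list that covered 17% of promoters.

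The histone marks at the INK4A start were called in partly different lines from those at the ARF start. H3K27me3 peaks covered the INK4A start in Pcgf2/4-/- (fold enrichment 9.38) and Pcgf3/5-/- (5.83), and H2AK119Ub1 peaks covered it in the same 2 lines (6.65 and 11.4). Near the ARF start both marks were called in Pcgf3/5-/- (H3K27me3 5.75, H2AK119Ub1 15.6 and 14.5) and in Pcgf3/5/6-/- (6.17 for H3K27me3, its summit 1566 bases from the start on the upstream side, and 6.87 and 8.05 for H2AK119Ub1). In Pcgf3/5/6-/- Cdkn2a RNA was at its highest of all genotypes (mean 19.8 CPM), and whether these peaks bear on the RNA was not tested. Neither mark was called near any Cdkn2a start in wild-type, Pcgf1-/-, Pcgf6-/- or Pcgf1/2/4-/-. The lists with these peaks were the widest: H2AK119Ub1 covered 66.9% of promoters in Pcgf3/5-/-, 42.1% in Pcgf2/4-/- and 32.1% in Pcgf3/5/6-/-, against 3.96% in wild-type. H3K27me3 covered 36.8% in Pcgf2/4-/-, 21.6% in Pcgf3/5-/- and 20.3% in Pcgf3/5/6-/-, against 13.4% in wild-type.

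**Figure D4:**
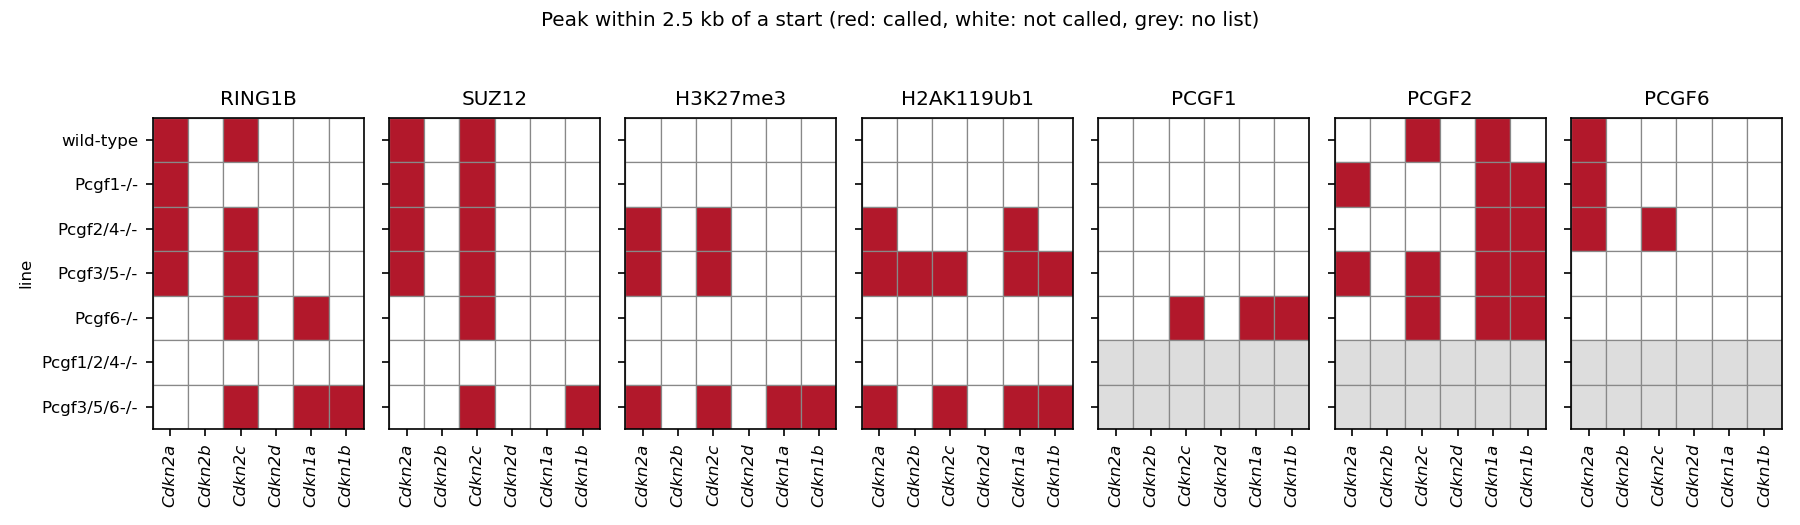
Presence of a called peak within 2.5 kb of any start of each inhibitor gene, with lines in rows, genes in columns and 1 panel for each antibody. Red cells were called, white cells were not, and grey cells had no list, so that the columns of Cdkn2b and Cdkn2d can be seen to be nearly or wholly empty beside those of Cdkn2a and Cdkn2c.

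Cdkn2b encodes p15INK4B, a CDK4 and CDK6 inhibitor that responds to TGF-β in many cells. Its libraries stood at 15.6 and 16.9 CPM in wild-type, 33.2 and 26.3 in Pcgf1-/- and 34.6 and 31.6 in Pcgf6-/-. Both pairs of knockout libraries lay above every library of the other 5 genotypes, which ran from 9.22 to 17.6 CPM. Cdkn2b rose 1.85-fold in Pcgf1-/- (log2 fold change 0.89, SE 0.24, adjusted p = 0.0175) and 2.04-fold in Pcgf6-/- (1.03, SE 0.24, adjusted p = 0.00360). Without replicate 1 of Pcgf1-/- the first of these calls was lost (0.69, adjusted p = 0.137). Cdkn2b and Cdkn2a, although neighbours, rose together only in Pcgf6-/- among the calls. The levels of Cdkn2b in Pcgf1/2/4-/- (12.1 ± 2.72 CPM, SD, n = 2) and Pcgf3/5/6-/- (17.1 ± 0.807) gave log2 fold changes of -0.42 and 0.07, with adjusted p of 0.308 and 0.847. Mtap, the neighbour of the pair that passed the filter on low counts, did not change past the threshold in any of the 6 comparisons with wild-type, with log2 fold changes from -0.29 to 0.21.

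Unlike Cdkn2a, the Cdkn2b start was almost free of peaks. No RING1B, SUZ12, H3K27me3, PCGF1, PCGF3 or PCGF6 list held a peak there. An H2AK119Ub1 peak of fold enrichment 5.14 was called in Pcgf3/5-/- and PCGF2 peaks of 6.39 and 6.14 in Ring1a-/-_Ring1bfl. H3K4me3, the mark of active and poised starts, was called at Cdkn2b in all 5 lists of that mark. The 200-base window before its start held 9 CpG and none of the motifs searched.

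Cdkn2c encodes p18INK4C, an INK4 protein of many proliferating and differentiating tissues. It was the least abundant of the 6, at 2.00 and 1.13 CPM in wild-type, from 14 and 8 counts. In Pcgf3/5/6-/- only 1 count was found over both libraries, against 22 in wild-type. Scaled to library size, that count is 10.4% of the wild-type level, with an exact 95% interval for counting error from 0.253% to 64.5%. The fit called the fall (log2 fold change -3.10, SE 0.96, adjusted p = 0.0171), but that fold change depends on the default prior count of edgeR's fit. The call was lost without replicate 2 of Pcgf3/5/6-/- (-2.24, adjusted p = 0.128), without replicate 1 of wild-type (-2.63, adjusted p = 0.0726) and with DESeq2 (-3.18, adjusted p = 0.139). Pcgf1/2/4-/- had 2 counts, or 31.3% of wild-type (3.57% to 127%), and did not pass (adjusted p = 0.181). The other 4 knockouts ranged from 1.02 to 2.86 CPM per library, and none passed.

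In wild-type cells the Polycomb peaks of Cdkn2c lay mostly between its starts. The 200 bases before that start (chr4:109337978-109338177, minus strand) are shown because the RING1B and SUZ12 peaks of wild-type cells cover them, with each CpG in capitals.
Cdkn2c downstream start: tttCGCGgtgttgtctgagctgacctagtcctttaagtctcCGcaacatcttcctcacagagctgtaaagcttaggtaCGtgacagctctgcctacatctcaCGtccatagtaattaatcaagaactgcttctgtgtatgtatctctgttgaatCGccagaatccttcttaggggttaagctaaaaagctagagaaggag
This window held 6 CpG and was 44.5% G+C. RING1B was called near Cdkn2c in wild-type (fold enrichment 13.1), Pcgf2/4-/- (7.8), Pcgf3/5-/- (7.35), Pcgf6-/- (19.7) and Pcgf3/5/6-/- (15.6), and not in Pcgf1-/- or in either sample of Pcgf1/2/4-/-. SUZ12 was called in 6 of 7 lines, with Pcgf1/2/4-/- the exception. Over the lines RING1B covered 6.28% to 17.7% of promoters and SUZ12 13.6% to 21.9%. An H3K27me3 peak of fold enrichment 11.7, 1002 bases upstream to 2012 downstream of the start, was called in Pcgf3/5/6-/-, with a second of 6.46 farther upstream. The RNA was at its lowest in this line, where H3K27me3 covered 20.3% of promoters. Whether these peaks bear on the RNA was not tested. Narrower H3K27me3 peaks of 5.36 and 6.30 were called in Pcgf2/4-/- and Pcgf3/5-/-. H2AK119Ub1 was called in Pcgf3/5-/- (up to 14.7) and Pcgf3/5/6-/- (up to 11.2), where it covered 66.9% and 32.1% of promoters. In Pcgf1/2/4-/- none of RING1B, SUZ12, H3K27me3 or H2AK119Ub1 was called near Cdkn2c.

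Cdkn2d encodes p19INK4D, an INK4 protein whose level oscillates over the cell cycle. Its libraries stood at 2.57 and 2.39 CPM in wild-type and at 5.35 and 5.67 in Pcgf6-/-, the highest 2 of the 14. The rise was 2.20-fold (log2 fold change 1.14, SE 0.35, adjusted p = 0.0181). It was lost without either Pcgf6-/- library (1.19, adjusted p = 0.0717, without replicate 1, and 1.10, adjusted p = 0.0858, without replicate 2), with DESeq2 (adjusted p = 0.140) and with loess offsets (0.67, adjusted p = 0.133), which correct each library along expression level. Cdkn2d had no peak of any antibody within 2.5 kb of its start in any of the 80 lists. That included H3K4me3, which covered 67.1% to 70.1% of promoters in the 5 lists and was called at each of the other 5 inhibitor genes.

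Cdkn1a encodes p21CIP1, the inhibitor through which p53 halts the cell cycle. It stood at 190 and 193 CPM in wild-type, 331 and 334 in Pcgf1/2/4-/- and 113 and 121 in Pcgf3/5/6-/-. The 2 triple knockouts thus lay on opposite sides of wild-type. Cdkn1a rose 1.73-fold in Pcgf1/2/4-/- (log2 fold change 0.79, SE 0.26, adjusted p = 0.0382) and fell in Pcgf3/5/6-/- (-0.71, SE 0.24, adjusted p = 0.0286). Leaving out replicate 1 or 2 of Pcgf1/2/4-/- lost the first call (0.80 and 0.79, adjusted p = 0.118 and 0.124), and so did loess offsets (0.29, adjusted p = 0.191). Leaving out replicate 1 or 2 of Pcgf3/5/6-/- lost the second (-0.66 and -0.76, adjusted p = 0.129 and 0.0815), and so did DESeq2's size factors in edgeR (-0.63, adjusted p = 0.0574) and DESeq2 itself (-0.63, adjusted p = 0.0672). Pcgf2/4-/- libraries stood at 358 and 234 CPM, both above wild-type, with a log2 fold change of 0.62 that did not pass (adjusted p = 0.128). It passed without replicate 2 of that line (0.90, adjusted p = 0.00894). The Pcgf1-/- pair (185 and 252 CPM) overlapped wild-type, and those of Pcgf3/5-/- (172 and 181) and Pcgf6-/- (153 and 154) lay below it without passing.

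At the upstream Cdkn1a start, PCGF2 peaks were called in 7 of the 8 lines with a PCGF2 list. The 200 bases before that start (chr17:29227724-29227923, plus strand) are shown because the peak summits fall in them, with a p53 response element in capitals.
Cdkn1a upstream start: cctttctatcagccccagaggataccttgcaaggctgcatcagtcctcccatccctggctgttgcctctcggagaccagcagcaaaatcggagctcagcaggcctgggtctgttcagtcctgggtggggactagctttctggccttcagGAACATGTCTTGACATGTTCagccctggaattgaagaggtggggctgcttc
The element, 2 adjacent copies of the p53 consensus decamer with at most 1 mismatch in all, lay 51 to 32 bases before the start. It occurred in 20 of the 67217 windows of all starts (0.0298%). PCGF2 summits lay 33 bases before the start in wild-type (fold enrichment 35), 47 in Pcgf1-/- (17.9), 68 in Pcgf3/5-/- (14.6) and 36 in Pcgf6-/- (29.5). A PCGF2 peak was also called in Pcgf2/4-/-, the line labelled as lacking PCGF2, with its summit 51 bases before the start and a fold enrichment of 32.5. In Ring1a/b-/- the summit lay 39 bases before the start (20.5), and in Ring1a-/-_Ring1bfl 55 bases before it (6.58). The Ezh1/2-/- list, the smallest at 163 peaks, had none. No RING1B or SUZ12 peak lay at this start: the RING1B peaks near Cdkn1a, in Pcgf6-/- (5.01) and Pcgf3/5/6-/- (5.18), were next to the middle start, 2.79 kb downstream.

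**Figure D5:**
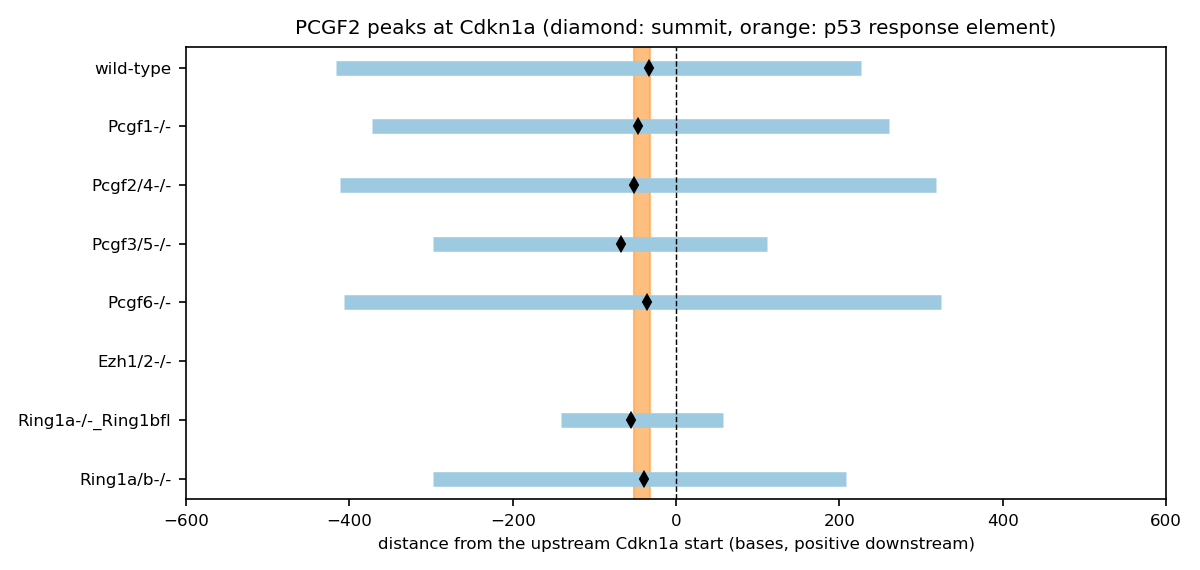
PCGF2 peaks (bars) and their summits (diamonds) in 8 lines along the distance in bases from the upstream start of Cdkn1a, with the p53 response element as an orange band. Summits of 7 lines lie 33 to 68 bases before the start, on or within 20 bases of the band, and the Ezh1/2-/- row is empty.

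After these values were seen, the same element was searched for around all PCGF2 summits. It lay within 50 bases of the summit of 84 of 4472 PCGF2 peaks in wild-type (1.88%). The share was 11.7% (123 of 1050) in Pcgf2/4-/- and 20.5% (136 of 662) in Ring1a/b-/-, the lists in which PCGF2 covered 3.58% and 1.63% of promoters against 13.4% in wild-type. It was 3.15% in Pcgf6-/-, 3.07% (5 of 163) in Ezh1/2-/-, 0.901% in Pcgf1-/-, 0.561% in Pcgf3/5-/- and 0.128% in Ring1a-/-_Ring1bfl. Of 8 RING1B lists, 7 had no peak with the element and 1 had 1 of 1814. Of 22 genes in a list of p53 and its targets, 10 had a PCGF2 peak in wild-type, 10 in Pcgf2/4-/-, 8 in Ring1a/b-/- and 13 in Pcgf6-/-. In Pcgf1-/- there were 8, in Pcgf3/5-/- 7, in Ring1a-/-_Ring1bfl 3 and in Ezh1/2-/- 1. In the same order, PCGF2 covered 13.4%, 3.58%, 1.63%, 20.4%, 13.1%, 10.2%, 10% and 0.824% of all promoters. Bax, a known p53 target, was among the genes with a peak in all 8 lists. What the antibody bound at these sites was not tested.

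The middle Cdkn1a start, in a window of 17 CpG and 69% G+C, carried Polycomb peaks in some knockouts but none of RING1B, SUZ12, H3K27me3 and H2AK119Ub1 in wild-type. H2AK119Ub1 was called next to it in Pcgf2/4-/- (fold enrichment 7.67), Pcgf3/5-/- (25.3) and Pcgf3/5/6-/- (19.2), and next to the third start in Pcgf2/4-/- (5.41) and Pcgf3/5-/- (12.6). In Pcgf2/4-/-, Pcgf3/5-/- and Pcgf3/5/6-/- this mark covered 42.1%, 66.9% and 32.1% of all promoters, against 3.96% in wild-type. H3K27me3 was called next to the middle start in 1 of the 7 lines, Pcgf3/5/6-/- (6.35), the line in which Cdkn1a RNA was lowest. H3K27me3 covered 20.3% of promoters in this line, and whether the peak bears on the RNA was not tested. PCGF1 peaks were called next to the middle start in Pcgf6-/- (6.73), Ezh1/2-/- (5.75), Ring1a-/-_Ring1bfl (7.30) and Ring1a/b-/- (5.47), and not in wild-type. Those lists covered 4.34% to 32.7% of promoters, against 2.6% in wild-type.

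Cdkn1b encodes p27KIP1, the inhibitor of CDK2 complexes best known for holding cells in quiescence. Its genotype means ran from 6.36 ± 0.529 CPM (SD, n = 2) in Pcgf3/5/6-/- to 45.5 ± 4.25 in Pcgf1-/-. Its libraries stood at 21.4 and 24.7 CPM in wild-type, 48.5 and 42.5 in Pcgf1-/-, 35.6 and 42.2 in Pcgf2/4-/- and 34.9 and 33.6 in Pcgf3/5-/-. Pcgf6-/- stood at 12.9 and 10.7, Pcgf1/2/4-/- at 20.8 and 30.7, and Pcgf3/5/6-/- at 5.98 and 6.73. The first 3 knockouts lay above both wild-type libraries, Pcgf6-/- and Pcgf3/5/6-/- lay below both, and Pcgf1/2/4-/- spanned them. Cdkn1b rose 1.98-fold in Pcgf1-/- (log2 fold change 0.99, SE 0.20, adjusted p = 0.00341) and 1.71-fold in Pcgf2/4-/- (0.78, SE 0.20, adjusted p = 0.0219). In Pcgf6-/- it fell to 0.516 of wild-type (-0.96, SE 0.21, adjusted p = 0.00216) and in Pcgf3/5/6-/- to 0.276 (-1.86, SE 0.26, adjusted p = 6.73e-05). The value of 0.57 in Pcgf3/5-/- did not pass (adjusted p = 0.0778). It passed in edgeR with the wild-type libraries as 2 samples (adjusted p = 0.0202) and with a replicate block added to that (adjusted p = 0.031). The call in Pcgf2/4-/- was lost without replicate 1 of wild-type (0.68, adjusted p = 0.0552), without replicate 2 of Pcgf2/4-/- (0.63, adjusted p = 0.0546) and with DESeq2 (0.81, adjusted p = 0.0660).

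The single annotated Cdkn1b start lies in a window rich in CpG. The 200 bases before it (chr6:134870219-134870418, plus strand) are shown because PCGF2 summits fall in them, with CCAAT boxes in capitals.
Cdkn1b start: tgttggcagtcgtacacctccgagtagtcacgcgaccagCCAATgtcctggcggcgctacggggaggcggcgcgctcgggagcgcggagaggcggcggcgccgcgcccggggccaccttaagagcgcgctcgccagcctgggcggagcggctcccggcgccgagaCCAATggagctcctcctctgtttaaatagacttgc
The window held 27 CpG, was 70% G+C and had CCAAT at 161 to 157 and at 35 to 31 bases before the start. CCAAT, searched on both strands, occurred in 27.6% of all windows. RING1B, SUZ12 and H3K27me3 were called at Cdkn1b in 1 line only, Pcgf3/5/6-/-, in which its RNA was lowest. The fold enrichments there were 7.91 and 5.37 for RING1B, 5.72 for SUZ12 and 6.27, 5.37 and 5.24 for 3 H3K27me3 peaks. In this line RING1B covered 8.37% of promoters, SUZ12 13.6% and H3K27me3 20.3%. Whether these peaks bear on the RNA was not tested. H2AK119Ub1 was called in Pcgf3/5/6-/- (up to 11.5) and in Pcgf3/5-/- (up to 19.0), where Cdkn1b RNA stood above wild-type. H2AK119Ub1 covered 32.1% and 66.9% of promoters in these lines. PCGF2 was called in Pcgf1-/-, Pcgf2/4-/-, Pcgf3/5-/-, Pcgf6-/- and Ring1a-/-_Ring1bfl, with summits 106 to 153 bases before the start and fold enrichments from 7.03 to 19.4. The list from Pcgf2/4-/- gave the highest of these values (19.4), and no p53 element was found in the window. In Pcgf6-/-, where Cdkn1b also fell, none of RING1B, SUZ12, H3K27me3 and H2AK119Ub1 was called, while PCGF1 was (6.61).

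Cdkn1c and Cdkn3 were compared with the 6. Cdkn1c, which encodes the imprinted inhibitor p57KIP2, stood at 2.43 and 2.68 CPM in wild-type and at 129 and 122 in Pcgf3/5/6-/-. No other library exceeded 7.22 CPM. The rise was 48.8-fold (log2 fold change 5.61, SE 0.31, adjusted p = 5.79e-08), larger than that of any of the 6 in any line. Cdkn1c had RING1B peaks in all 8 lists and SUZ12 and H3K27me3 peaks in all 7 lists, Pcgf3/5/6-/- included, where the fold enrichment of RING1B was 8.69 against 25.9 in wild-type and that of SUZ12 12.7 against 26.3, while H3K27me3 stood at 12.6 against 7.81 and H2AK119Ub1 at 22.9 against 6.79 (the highest peak of each). Trophoblast markers, of a lineage in which p57 is abundant, summed to 631 to 639 CPM in Pcgf3/5/6-/- against 131 to 137 in wild-type, with 6 of 7 raised and 1 lowered. Sums for primitive endoderm (180 to 182 against 10.8 to 11.9), neural cells (200 to 202 against 87.6 to 88) and fibroblasts (72.4 to 74 against 43.1 to 47.1) were also higher. That for mesendoderm was lower (15.5 to 20.5 against 50.1 to 56). In Pcgf6-/- 5 of the 7 trophoblast markers were raised and 1 lowered, while Cdkn1c did not pass (adjusted p = 0.364). The part of these markers in the rise of Cdkn1c was not tested. Cdkn3, a phosphatase that acts on CDK2, did not pass in any of the 6 comparisons with wild-type, with log2 fold changes from -0.13 to 0.40.

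Each triple knockout was next set against the 2 lines whose deletions it combines by label. Whether they carry the same deletions was not tested. Pcgf6 mRNA stood at 0 CPM in Pcgf6-/- and 39.4 in Pcgf3/5/6-/-. Pcgf5 mRNA stood at 5.05 CPM in Pcgf3/5-/- and 14.9 in Pcgf3/5/6-/-. Cdkn2a was 4.02-fold higher in Pcgf1/2/4-/- than in Pcgf1-/- (log2 fold change 2.01, SE 0.33, adjusted p = 0.000512) and 2.20-fold higher than in Pcgf2/4-/- (1.14, SE 0.32, adjusted p = 0.0175). The second of these calls was lost without either Pcgf1/2/4-/- library (1.10 and 1.19, adjusted p = 0.0969 and 0.0830). Cdkn2b was lower in Pcgf1/2/4-/- than in Pcgf1-/- (-1.30, SE 0.26, adjusted p = 0.00162). Cdkn1b was lower than in Pcgf1-/- (-0.82, SE 0.19, adjusted p = 0.00515) and than in Pcgf2/4-/- (-0.61, SE 0.20, adjusted p = 0.0365). Both Cdkn1b calls were lost without replicate 1 of Pcgf1/2/4-/- (-0.58 and -0.36, adjusted p = 0.0779 and 0.305), the first also without replicate 1 of Pcgf1-/- (-0.71, adjusted p = 0.0501) and the second without replicate 2 of Pcgf2/4-/- (-0.45, adjusted p = 0.198) and with DESeq2 (-0.55, adjusted p = 0.138), RLE factors (adjusted p = 0.0510) or loess offsets (adjusted p = 0.0731). Cdkn1a was higher than in Pcgf1-/- (0.61, SE 0.20, adjusted p = 0.0322), which was lost without replicate 1 of Pcgf1-/- (0.40, adjusted p = 0.218) or either Pcgf1/2/4-/- library (0.62 and 0.60, adjusted p = 0.118 and 0.126), and turned to -0.03 with loess offsets. In all, 4 of the 6 differed from Pcgf1-/- and 2 from Pcgf2/4-/-, beside 37.5% and 26.7% of all genes.

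Pcgf3/5/6-/- differed from Pcgf3/5-/- at 5 of the 6 genes and from Pcgf6-/- at 3, beside 49.3% and 42.7% of all genes. Cdkn2a was 4.38-fold higher than in Pcgf3/5-/- (log2 fold change 2.13, SE 0.29, adjusted p = 4.26e-05), while its difference from Pcgf6-/- did not pass (0.45, SE 0.25, adjusted p = 0.160). Cdkn1b was lower than in Pcgf3/5-/- (-2.43, SE 0.23, adjusted p = 2.16e-06) and than in Pcgf6-/- (-0.90, SE 0.25, adjusted p = 0.0115). The last call was lost without replicate 1 of Pcgf6-/- (-0.76, adjusted p = 0.0779) or of Pcgf3/5/6-/- (-0.82, adjusted p = 0.0926). Cdkn2b was lower than in Pcgf6-/- (-0.95, SE 0.22, adjusted p = 0.00352), so that its rise in the single knockout was not seen in the triple. It was higher than in Pcgf3/5-/- (0.66, adjusted p = 0.0372), a call lost without replicate 2 of Pcgf3/5-/- (0.53, adjusted p = 0.159) or replicate 1 or 2 of Pcgf3/5/6-/- (0.61 and 0.71, adjusted p = 0.159 and 0.0962) and with DESeq2 (0.74, adjusted p = 0.0559). Cdkn2c had 1 count, against 25 in Pcgf3/5-/- and 34 in Pcgf6-/-, and both differences passed (adjusted p = 0.00653 and 0.00421), the first not without replicate 2 of Pcgf3/5/6-/- (adjusted p = 0.0657) and neither with DESeq2 (adjusted p = 0.0693 and 0.0601). Cdkn1a was lower than in Pcgf3/5-/- (-0.59, adjusted p = 0.0295), which no fit that left out 1 of these 4 libraries kept (-0.64 to -0.54, adjusted p from 0.0743 to 0.156), nor did DESeq2 (-0.52, adjusted p = 0.0595).

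Whether a triple knockout equals the sum of its parts on the log2 scale was tested as an interaction, chosen after the values had been seen. The parts are the lines named by the labels, whose deletions are not shown to be those of the triple. Such an interaction passed for 27.7% of all genes for Pcgf3/5/6-/- and for 24.5% for Pcgf1/2/4-/-. Cdkn1b was lower than the sum of its parts in both triples, by -1.47 (SE 0.32, adjusted p = 0.00441) in Pcgf3/5/6-/- and by -1.59 (SE 0.28, adjusted p = 0.00123) in Pcgf1/2/4-/-. Cdkn2a was higher than the sum in Pcgf1/2/4-/- (1.82, SE 0.46, adjusted p = 0.0118), where neither part had raised it. In Pcgf3/5/6-/- its excess of 0.80 (SE 0.41) did not pass (adjusted p = 0.170). Cdkn2c fell below the sum in Pcgf3/5/6-/- (-4.00, SE 1.02, adjusted p = 0.0102), on 1 count, and that call was lost without replicate 2 of this line (-3.14, adjusted p = 0.0619) and with DESeq2 (-4.13, adjusted p = 0.110).

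Genes that act with the inhibitors were counted over lists chosen by function. Of 18 cyclin-dependent kinases, cyclins and CDC25 phosphatases, 0 rose and 4 fell in Pcgf1-/-, and 4 rose and 5 fell in Pcgf3/5/6-/-, with 1 to 4 changed in each of the other 4 lines. Of all genes 9.55% rose and 12.6% fell in Pcgf1-/-, and 25.0% rose and 21% fell in Pcgf3/5/6-/-, so that the counts in the second line are near those of all genes. In the other 4 lines 5.05% to 24.4% of all genes rose and 5.96% to 16.3% fell. Ccnd1, the D-type cyclin that INK4 proteins counter, fell most in Pcgf1/2/4-/- (log2 fold change -3.20, SE 0.18, adjusted p = 6.80e-07) and in Pcgf2/4-/- (-1.22, SE 0.17, adjusted p = 0.000556). Cdk6, a direct target of the INK4 proteins, fell in Pcgf3/5/6-/- (-1.58, SE 0.18, adjusted p = 1.78e-05). Ccnd1 also fell in Pcgf1-/- (-0.60). Ccne2, a partner of CDK2, fell in Pcgf1-/- (-1.42), Pcgf1/2/4-/- (-1.19) and Pcgf3/5/6-/- (-0.74) and rose in Pcgf6-/- (0.83). The median log2 fold change of the list ran from -0.18 in Pcgf1-/- to 0.27 in Pcgf3/5/6-/-. Of 13 RB family and E2F genes, 4 fell and 1 rose in Pcgf1-/-, beside 12.6% and 9.55% of all genes. In Pcgf6-/- 3 rose and 2 fell, beside 24.4% and 14.2% of all genes, and in Pcgf3/5/6-/- 2 and 2, beside 25.0% and 21%. In Pcgf2/4-/- 0 rose and 3 fell (5.05% and 9.19% of all genes), in Pcgf3/5-/- 0 and 1 (7.67% and 5.96%) and in Pcgf1/2/4-/- 0 and 1 (8.00% and 16.3%). Rbl2, which encodes the RB relative p130, fell in Pcgf3/5-/- (-1.26), Pcgf6-/- (-1.22) and Pcgf3/5/6-/- (-1.40). E2f6, the partner of PCGF6, fell in Pcgf1/2/4-/- (-1.11, SE 0.37, adjusted p = 0.0435).

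Among 22 genes of the p53 list, Cdkn1a not counted, 7 rose and 4 fell in Pcgf1/2/4-/-, beside 8.00% of all genes raised and 16.3% lowered, and 6 rose and 2 fell in Pcgf3/5/6-/-, beside 25.0% raised and 21% lowered. In Pcgf1-/- 4 rose and 1 fell, beside 9.55% and 12.6% of all genes, and in Pcgf2/4-/- 5 and 1, beside 5.05% and 9.19%. In Pcgf3/5-/- 0 rose and 2 fell, beside 7.67% and 5.96% of all genes, and in Pcgf6-/- 6 and 2, beside 24.4% and 14.2%. Pmaip1, the pro-apoptotic p53 target NOXA, rose in Pcgf1/2/4-/- (log2 fold change 1.70, SE 0.17, adjusted p = 2.82e-05), Pcgf2/4-/- (0.79) and Pcgf6-/- (1.04) and fell in Pcgf3/5-/- (-1.49, SE 0.15, adjusted p = 4.18e-05). Btg2, an antiproliferative p53 target, rose in Pcgf3/5/6-/- (1.85, SE 0.17, adjusted p = 2.10e-06) and Pcgf6-/- (0.87). Rrm2b, a p53-induced subunit of ribonucleotide reductase, rose in Pcgf2/4-/- (1.02), Pcgf6-/- (1.48) and Pcgf3/5/6-/- (1.01). The list's median ran from -0.11 in Pcgf3/5-/- to 0.46 in Pcgf1/2/4-/-. Of the 11 genes tested that serve the degradation of p21 and p27 proteins, at most 3 changed in any line. Of all genes, 5.05% to 25.0% rose and 5.96% to 21% fell over the lines. Skp2, the receptor that marks p27 for degradation, fell in Pcgf1/2/4-/- (-0.64, SE 0.16, adjusted p = 0.0105), and Dtl, which marks p21, fell in Pcgf3/5/6-/- (-0.68, SE 0.16, adjusted p = 0.00300).

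Of 13 tested genes known to regulate the Ink4/Arf locus, of which Bmi1 is itself targeted in 2 of the lines, 0 rose and 6 fell in Pcgf1-/-, beside 12.6% of all genes lowered. In Pcgf6-/- 3 rose and 2 fell and in Pcgf3/5/6-/- 3 rose and 3 fell, shares near those of all genes (24.4% and 14.2%, and 25.0% and 21%). In Pcgf2/4-/- 1 rose and 2 fell (5.05% and 9.19% of all genes), in Pcgf3/5-/- 0 and 3 (7.67% and 5.96%) and in Pcgf1/2/4-/- 2 and 2 (8.00% and 16.3%). Bmi1, the repressor of this locus in other cells, rose in Pcgf6-/- (log2 fold change 0.88, SE 0.21, adjusted p = 0.00453), where Cdkn2a rose too. Cbx7, a subunit of canonical PRC1, fell there (-0.94) and in Pcgf1-/- (-0.55), and Cbx8, another such subunit, rose in Pcgf2/4-/- (1.49), Pcgf1/2/4-/- (1.77) and Pcgf3/5/6-/- (1.12). Id1, a repressor of INK4A transcription, fell in Pcgf1-/- (-1.11), Pcgf2/4-/- (-1.24) and Pcgf1/2/4-/- (-1.23) and rose in Pcgf6-/- (0.64) and Pcgf3/5/6-/- (1.35). Kdm2b, the CpG-binding partner of PCGF1, fell in Pcgf3/5/6-/- (-0.99), Pcgf1-/- (-0.81), Pcgf6-/- (-0.71) and Pcgf3/5-/- (-0.57). Of 16 DNA replication genes, 0 to 3 changed in any line, while 5.05% to 25.0% of all genes rose and 5.96% to 21% fell over the lines. Cdc6 fell in Pcgf1-/- (-0.47), Pcgf2/4-/- (-0.59) and Pcgf3/5/6-/- (-0.58), Cdt1 rose in Pcgf1/2/4-/- (0.76), and Gins1 fell in Pcgf1-/- (-0.66) and Pcgf3/5/6-/- (-0.70).

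The genes whose mean levels over the 7 genotypes were most like those of each inhibitor gene were taken by Pearson's correlation among 11616 genes, as a description. Col4a2 was most like Cdkn2a (r = 0.984), Pik3ip1 most like Cdkn2b (0.969) and Tmem126b most like Cdkn2c (0.986). Rab8b was most like Cdkn2d (0.985), Trmt1 most like Cdkn1a (0.998) and Ddrgk1 most like Cdkn1b (0.993). With 7 points that share library depth, values this high are reached by several genes for each, and none of the 6 was among the 3 most like another.

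The authors' deposited table of comparisons with wild-type gave values of the same sign wherever edgeR called a change of these 6 genes. The calls differed at 3 places by the authors' adjusted p, for which the notes name DESeq2. Cdkn1b in Pcgf3/5-/- (0.0165) and Cdkn1a in Pcgf2/4-/- (0.00634) were below 0.05 there and not called by edgeR here. Cdkn2c in Pcgf3/5/6-/- (0.0811), called here, was not below 0.05 there. The columns of the authors' deposited table for Pcgf6-/- name another clone than the count columns do, so its values there may be of other cells. In the authors' deposited table, Cdkn2a had log2 fold changes of 1.37 in Pcgf6-/-, 1.42 in Pcgf1/2/4-/- and 1.86 in Pcgf3/5/6-/-. The category of the authors' deposited table was "NotDE" for each of the 6 genes in every comparison, including Cdkn1b in Pcgf3/5/6-/- with a log2 fold change of -1.78 and an adjusted p of 1e-08.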

How the data were processed

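Gene counts of 14 poly-A RNA-seq libraries, made by the authors with TopHat2 2.1.1 and HTSeq 0.7.2 on mm9 per the submitters' processing notes, were used as deposited. No source used here says whether counting used strand. The 80 deposited peak lists (1189711 peaks, 12 antibodies) were made with Bowtie 1.2.2, Picard 1.62 and MACS2 2.1.1 per the same notes. Per the file headers' narrowPeak columns they give a fold enrichment (ratio), a −log10 q-value and the summit offset of each peak, all the authors' own values, used only to describe peaks. The fly spike-in of the histone ChIP was not used here, and 1 input sample had no file used. The authors' deposited comparison tables give log2 fold changes and adjusted p-values, with DESeq2 3.7 named in the notes.

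Counts were tested with edgeR 4.0.16 in R 4.3.3 (TMM factors, filterByExpr, quasi-likelihood F-test, Benjamini-Hochberg adjustment over 15871 genes, threshold 0.05). All genotypes were in 1 fit, with the wild-type libraries summed to 1 sample. A prior count of 2 was used for log2 CPM, while the fold changes used the default prior count of edgeR's fit. Library totals of 2147968 to 7848161 counts set the precision: 3 counts, the floor, were 0.328 to 1.6 CPM. Exact 95% intervals cover counting error only. The common dispersion of 0.0178 is a biological coefficient of variation of 13.4%. Alternatives were DESeq2 1.42.0, DESeq2's size factors in edgeR (RLE), loess offsets from limma 3.58.1, no filter, wild-type as 2 samples, a replicate block and leaving out each library. Genes of the lists were named where they changed most in each direction in a comparison at a mean log2 CPM of at least 2. Peaks were assigned to a gene within 2.5 kb of any of its starts in NCBIM37 (mm9), over 21001 gene symbols, and motifs were searched in the 200 bases before each start. The members, lists and tests were chosen with earlier results of these data known. On counts simulated for Pcgf6-/- against wild-type over 15871 genes, the fit recovered 89.8% of genes raised 4-fold and 57.8% of those raised 2-fold, 90% and 61.4% of those lowered to the same degree, and called 0.0207% of unchanged genes. The simulation gave every library, wild-type included, the same fitted dispersion per gene, and changed few genes, in Pcgf6-/- only. The real pairs differed in spread (chi-square per degree of freedom 0.954 to 21.1) and many more genes changed, so these shares may not hold for the real data.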

Additional observations from a re-analysis of the deposited data

Results flagged for a closer look

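In 6 of 14 tests, over the 6 genes and Cdkn1c in both triples, the effect of a triple knockout differed from the sum of the effects of its parts, by edgeR's quasi-likelihood test of that difference on the log2 scale with adjustment over 15871 genes. Over all genes 27.7% passed for Pcgf3/5/6-/- and 24.5% for Pcgf1/2/4-/-. The test was chosen after the values had been seen, and all comparisons share the wild-type sample. The parts are the lines named by the labels, and whether a triple carries the same deletions was not tested. Cdkn1b stood in both triples: the parts of Pcgf3/5/6-/- summed to -0.38 and the triple fell short of that sum by -1.47 (adjusted p = 0.00441), while the parts of Pcgf1/2/4-/-, each of which raised Cdkn1b, summed to 1.76 and the triple differed from it by -1.59 (adjusted p = 0.00123). Both libraries of each triple lay below the libraries of its parts. Cdkn2a in Pcgf1/2/4-/- exceeded a sum of -0.49 by 1.82 (adjusted p = 0.0118). Cdkn2c in Pcgf3/5/6-/- differed from a sum of 0.90 by -4.00 (adjusted p = 0.0102), on 1 count in the triple. Cdkn1c exceeded the sums of -0.40 and -1.85 by 6.01 in Pcgf3/5/6-/- (adjusted p = 3.51e-06) and by 3.04 in Pcgf1/2/4-/- (adjusted p = 0.00415), although in the second its rise over wild-type did not itself pass (1.19, adjusted p = 0.0528).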

How the results depend on the processing

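Of 27 called differences of the 6 genes, 11 stayed past the threshold in the same direction under all 10 alternatives run for each: Cdkn1b in Pcgf1-/-, Cdkn2a, Cdkn2b and Cdkn1b in Pcgf6-/-, Cdkn2a and Cdkn1b in Pcgf3/5/6-/-, Cdkn2a and Cdkn2b between Pcgf1/2/4-/- and Pcgf1-/-, Cdkn2a and Cdkn1b between Pcgf3/5/6-/- and Pcgf3/5-/-, and Cdkn2b between Pcgf3/5/6-/- and Pcgf6-/-. Over all 599 alternative values of log2 fold change, 528 kept direction and side of the threshold, 47 lost the call, 10 gained it and 14 changed sign. The causes were not tested. DESeq2 called 0 of the 6 genes in Pcgf2/4-/- (1 with edgeR), 2 in Pcgf3/5/6-/- (4), 1 between Pcgf1/2/4-/- and Pcgf2/4-/- (2) and 2 between Pcgf3/5/6-/- and Pcgf3/5-/- (5). RLE factors and loess offsets each called 1 between Pcgf1/2/4-/- and Pcgf2/4-/-, and loess offsets 1 in Pcgf1/2/4-/- (2). Leaving out 1 library gave 1 to 2 calls in Pcgf1-/-, 0 to 1 in Pcgf2/4-/-, 0 to 2 in Pcgf1/2/4-/-, 2 to 4 in Pcgf3/5/6-/-, 2 to 5 between Pcgf1/2/4-/- and Pcgf1-/-, 0 to 3 between it and Pcgf2/4-/-, and 2 to 4 between Pcgf3/5/6-/- and Pcgf3/5-/-. With the wild-type libraries as 2 samples, 2 genes passed in Pcgf2/4-/- and 1 in Pcgf3/5-/-.

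The replicate block gave 2 calls in Pcgf2/4-/- and 1 in Pcgf3/5-/-. The samples share only a number: deviations of same-numbered libraries correlated from -0.45 to 0.36 (median 0.01), and no pairing was assumed.

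With loess offsets the sign turned for Cdkn2c in Pcgf6-/- (-0.56), Cdkn1a in Pcgf1/2/4-/- against Pcgf1-/- (-0.03) and Pcgf2/4-/- (-0.04), and Cdkn2d between Pcgf3/5/6-/- and Pcgf3/5-/- (-0.38), and with DESeq2 for Cdkn2b between Pcgf1/2/4-/- and Pcgf2/4-/- (0.01). Leaving out 1 library moved values across 0, from lowest to highest, for Cdkn2a in Pcgf2/4-/- (-0.60 to 0.44), Cdkn2c in Pcgf3/5-/- (-0.02 to 0.80), Cdkn2d and Cdkn1b in Pcgf1/2/4-/- (-1.20 to 0.34 and -0.15 to 0.41), Cdkn2d between Pcgf1/2/4-/- and Pcgf1-/- (-1.52 to 0.03), Cdkn2b and Cdkn1a between Pcgf1/2/4-/- and Pcgf2/4-/- (-0.34 to 0.40 and -0.11 to 0.51), Cdkn2d between Pcgf3/5/6-/- and Pcgf3/5-/- (-0.03 to 0.17) and the Cdkn1a interaction of Pcgf1/2/4-/- (-0.29 to 0.32). None of these passed in the fit reported except Cdkn1a against Pcgf1-/-.

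Over all genes DESeq2 called fewer than edgeR (1987 against 3521 in Pcgf1-/-, 1116 against 2261 in Pcgf2/4-/-, 983 against 2164 in Pcgf3/5-/-, 4079 against 6126 in Pcgf6-/-). Loess offsets moved the median of all genes between Pcgf1/2/4-/- and Pcgf1-/- from -0.02 to -0.26 and the share raised among calls from 46.1% to 27.7%, and in Pcgf1-/- that share from 43.1% to 57.9%. In Pcgf1/2/4-/- DESeq2 gave 49.6% against 32.9%. A 1 kb window left 5 of 12 H3K36me3 occurrences near the 6 genes, and a 5 kb window added 1 USF1 occurrence. The order of levels per length held in 6 of 7 genotypes with the longest transcript. Depth limits Cdkn2c most, with 1 to 34 counts per genotype.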
